A study of Mus musculus with 41 samples.

Results

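The occupancy of 4 histone marks was read at 10 mouse genes that encode enzymes adding acyl groups to histones (writers) or removing them (erasers), among 21728 protein-coding genes. The writers were Ep300, Crebbp, Kat2a, Kat2b and Kat5, and the erasers were Hdac1, Hdac2, Hdac3, Sirt1 and Sirt3. They were chosen by name for their function, with earlier results of these data known. The data were CUT&Tag peak lists, in which a transposase tethered by an antibody inserts sequencing adapters into the DNA beside a histone mark. Lactylation of lysine 18 of histone H3 (H3K18la) was profiled in 8 cell types, H3K27me3 in 7, H3K27ac in 5 and H3K4me3 in 4, which made 24 lists from 41 samples.

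The cell types were E14 embryonic stem cells, an established line, grown in serum-lif (ESC-ser) or 2i-lif medium (ESC-2i), white adipocytes (ADIPO), primary myoblasts (MB) and the myotubes differentiated from these (MT), macrophages grown from bone marrow (BMDM) or sorted from muscle after ischemia (PIM), and whole gastrocnemius muscle (GAS). Apart from the E14 cells the labels give the strain C57BL/6, and they name no perturbation of any of the 10 genes. Muscle and macrophage donors were young adult female mice, PIM were sorted by CD45, CD11b, F4/80 and CD64, and the adipocyte nuclei came from mice carrying a nuclear tag driven by an adipocyte-specific Cre. GAS was whole tissue and so held other cell types beside muscle fibres. Whole cells were used for the stem cells but nuclei for the 6 remaining cell types, so that this step and the stem cell state cannot be told apart.

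Histone acetyltransferases transfer an acyl group from its coenzyme A ester to a lysine, and histone deacetylases and sirtuins take it off again. EP300 and its paralogue CREBBP are broad coactivators that acetylate H3K18 and H3K27 at enhancers and promoters and that also use lactyl coenzyme A. KAT2A and KAT2B are alternative catalytic subunits of the SAGA coactivator complex, KAT5 is that of NuA4, HDAC1 to HDAC3 are zinc-dependent enzymes of corepressor complexes, and SIRT1 and SIRT3 depend on NAD, SIRT3 acting mostly in mitochondria. H3K4me3 marks active promoters, H3K27ac marks active promoters and enhancers, and H3K27me3 marks repressed chromatin.

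Each list came from coverage that the authors had combined over the replicates of a group, so a value has no replicate error and the cell type is the unit of comparison. Of the 24 groups 17 held 2 samples and 7 held 1, among them the MB and BMDM H3K18la lists. The H3K18la lists held 13550 to 36813 peaks, and the promoter of a gene was called where a peak overlapped the 2000 bp on either side of its transcription start site (TSS) by at least 1 bp. All 3 stem cell markers (Pou5f1, Nanog, Zfp42) were called for H3K18la in both stem cell lists and none in the other 6, all 3 adipocyte markers (Adipoq, Plin1, Lep) were called in ADIPO and 1 of them, Adipoq, also in BMDM and PIM, and all 3 macrophage markers (Csf1r, Adgre1, Spi1) in BMDM and PIM. All 4 muscle markers (Myod1, Myog, Ckm, Myh4) were called in MT and GAS but only 1, Myod1, in MB. GAS also had 2 of 3 macrophage, both endothelial and both fibroblast markers called for H3K18la, and PIM both endothelial markers. ADIPO had 1 macrophage (Spi1) and 1 fibroblast marker (Col1a1), MT the latter, and both stem cell lists Pecam1 and Pdgfra, and neither T cell marker was called in any H3K18la list. The part of these cells in the values at the 10 genes was not tested.

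The stretches of DNA on which the results turned are shown first, each as the 300 bases centred on the median position of the peak maximum (the point of highest coverage), read from the mouse genome build mm10 (GRCm38) on the gene's strand with CpG dinucleotides in capitals. The Kat2b stretch is shown because its H3K18la peaks reached their maximum there in all 6 cell types with a call. It lies at chr17:53568220-53568519 on the plus strand, in the first intron of the representative transcript. The Hdac2 stretch, at chr10:36974116-36974415 on the plus strand, holds the RefSeq start of the gene, lies upstream of the representative start and held the H3K18la maximum in all 7 cell types with a call. The Crebbp stretch, at chr16:4214110-4214409 on the minus strand, lies upstream of the gene and is shown because H3K27ac had its maximum there in 3 cell types while H3K18la was called at that promoter in 1 of 8.
Kat2b: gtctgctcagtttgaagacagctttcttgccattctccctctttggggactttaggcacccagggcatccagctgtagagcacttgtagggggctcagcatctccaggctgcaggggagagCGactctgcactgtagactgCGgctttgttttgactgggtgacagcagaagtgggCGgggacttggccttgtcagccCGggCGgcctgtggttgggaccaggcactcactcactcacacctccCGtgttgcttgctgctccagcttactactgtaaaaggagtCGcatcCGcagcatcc
Hdac2: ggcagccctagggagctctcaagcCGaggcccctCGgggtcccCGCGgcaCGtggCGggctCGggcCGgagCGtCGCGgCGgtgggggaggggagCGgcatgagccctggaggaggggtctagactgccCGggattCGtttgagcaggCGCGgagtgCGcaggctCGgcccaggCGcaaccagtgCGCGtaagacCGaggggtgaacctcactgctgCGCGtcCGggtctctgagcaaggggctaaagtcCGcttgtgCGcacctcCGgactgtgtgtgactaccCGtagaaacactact
Crebbp: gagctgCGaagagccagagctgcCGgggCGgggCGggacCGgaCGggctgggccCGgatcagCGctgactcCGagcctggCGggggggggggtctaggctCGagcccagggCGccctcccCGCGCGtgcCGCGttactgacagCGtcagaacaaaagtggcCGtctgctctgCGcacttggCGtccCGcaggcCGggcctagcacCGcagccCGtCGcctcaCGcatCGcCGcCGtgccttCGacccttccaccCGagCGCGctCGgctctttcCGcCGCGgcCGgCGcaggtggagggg
The Crebbp stretch held 40 CpG and the Hdac2 stretch 30, counts that 3.94% and 11.8% of 32619 RefSeq promoters of the same length reached. The Kat2b stretch held 8 CpG, which 48.9% of those promoters reached.

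Of the 4 marks, H3K4me3 was called at all 10 promoters in all 4 cell types profiled (40 of 40 combinations of gene and list). H3K27ac was called in 44 of 50 combinations, H3K18la in 43 of 80 and H3K27me3 in 3 of 70. As shares these were 100%, 88%, 53.8% and 4.29%, beside a mean of 55.8%, 40.3%, 28.1% and 19.2% of all protein-coding genes in the same lists. The gene set used for comparison includes genes that a given cell type does not use. The 10 genes therefore carried the marks of active promoters more often than the average gene, and the repressive mark less often. With the RefSeq gene start in place of the representative start, which moved the start of Sirt1 most, the counts were 41 of 80 for H3K18la, 42 of 50 for H3K27ac, 40 of 40 for H3K4me3 and 3 of 70 for H3K27me3.

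H3K18la calls ranged from none to 8 of the 10 genes. They were 8 in ESC-2i (34% of all protein-coding genes called) and 8 in ADIPO (41.3%), 7 in ESC-ser (29.7%) and 7 in GAS (31.8%). MT had 5 called (30.3%), PIM 5 (34%) and BMDM 3 (15.3%). MB, whose list called 8.42% of all genes, had none of the 10. Leaving out the MB and BMDM lists, the 2 that rest on 1 sample, 40 of 60 combinations were called (66.7%, against 33.6% of all genes).

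H3K27ac was called at 9 of the 10 promoters in ESC-ser (37.5% of all genes), GAS (43.3%), PIM (45.9%) and ADIPO (43.2%) and at 8 in BMDM (31.6%). For H3K4me3, with 10 of 10 in each list, the shares of all genes were 46.3% in ESC-ser, 58.9% in ESC-2i, 61.5% in GAS and 56.6% in PIM. H3K27me3 was called at 1 of the 10 promoters in ESC-ser (24.3% of all genes) and at 2 in PIM (24.2%). It was called at none in ESC-2i (19.3%), MB (10.8%), MT (17.6%), GAS (21%) and BMDM (17.6%).

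**Figure D1:**
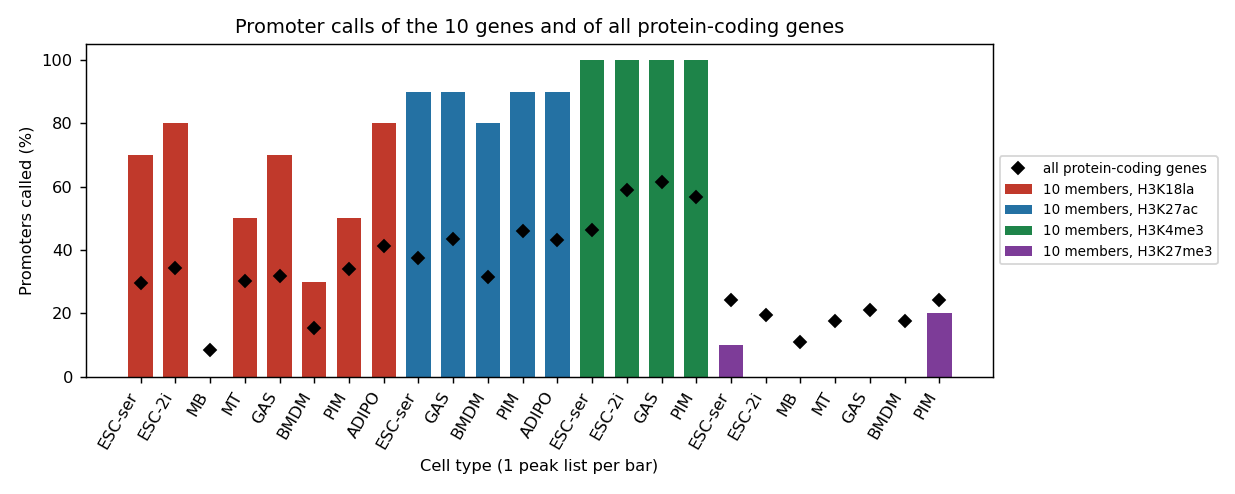
Promoters called (%) in each of the 24 peak lists, with bars for the 10 genes (coloured by mark) and diamonds for all 21728 protein-coding genes. The bars stand above the diamonds in all H3K4me3 and H3K27ac lists and in 7 of 8 H3K18la lists, MB being the exception with 0 genes, and below them in all 7 H3K27me3 lists.

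By total signal the H3K18la peaks at these promoters ranked low within their lists, and by maximum signal they did so in some lists. Signal was read as the percentile of a peak's total signal (coverage summed over the peak) among all peaks of the same list, taking the strongest peak at the promoter, because the lists are not scaled for depth. The median over the 43 called combinations was the 35.0 percentile, while over all called protein-coding genes it was 55.5. The members' median lay under that of all called genes in each of the 7 lists with a call, from 24.2 against 47.5 in BMDM to 47.6 against 55.7 in ADIPO. By maximum signal, which does not add up with width, the medians were 53.3 for the 43 combinations and 54.2 for all called genes. By list the members' median was lower in MT (22.5 against 47.5), BMDM (26.4 against 49.2), ESC-2i (45.0 against 50.3) and PIM (53.3 against 58.9), the same in GAS (63.8) and higher in ESC-ser (50.1 against 48.9) and ADIPO (68.2 against 58.2). The median width was 1910 bp against 2538 bp. For H3K27ac the 2 medians by total signal were 68.1 and 65.5, and for H3K4me3 78.7 and 70.6. By list the H3K27ac median of the members was lower in BMDM (38.6 against 57.3), ADIPO (52.4 against 62.7) and PIM (70.9 against 72.6). It was higher in ESC-ser (71.0 against 61.6) and GAS (82.0 against 68.6). Among the 5000 peaks with the most total signal in each H3K18la list, 3 of 80 combinations remained called (3.75%, against 6.53% of all genes). The excess of H3K18la calls over the average gene was thus not seen in these peaks, which were taken by a measure that adds up with width. With lists reduced to equal called bases, given in the last section, the share of the members stayed slightly above that of all genes. In the same reduction H3K27ac kept 20 of 50 (40%, against 14.4%) and H3K4me3 25 of 40 (62.5%, against 23.3%).

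**Figure D2:**
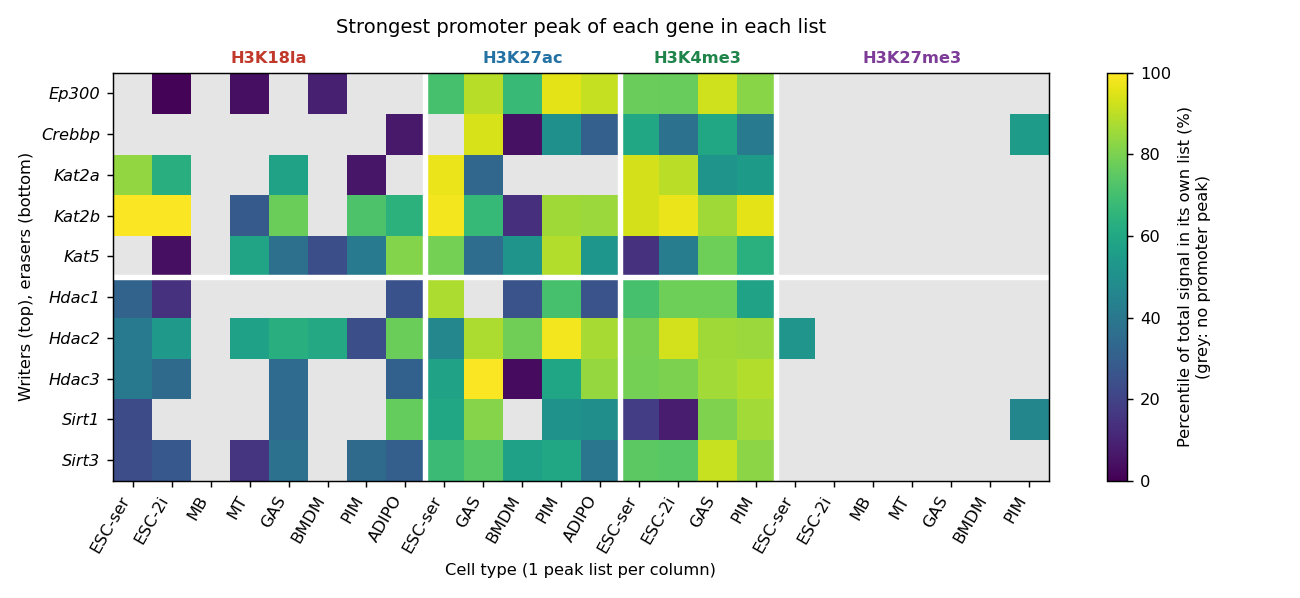
Percentile of total signal of the strongest promoter peak within its own list, for the 5 writers (top) and 5 erasers (bottom) in the 24 lists, with grey for no promoter peak. H3K4me3 columns are filled throughout, H3K27me3 columns hold 3 peaks, and among the H3K18la columns the highest percentiles are those of Kat2b in both stem cell lists.

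Ep300 encodes a broad transcriptional coactivator (chromosome 15, 81585351 to 81652077, plus strand). For H3K18la its promoter was called in ESC-2i, with 81.9% of the window in peaks, in MT with 64.8% and in BMDM with 14.9%, and in none of the other 5 cell types. All 3 peaks were among the weakest of their lists by total signal, at the 1.16 percentile in ESC-2i, 4.19 in MT and 8.69 in BMDM. Where it was not called, the nearest H3K18la peak was 47657 to 281082 bp away, and the rest of the gene body held no H3K18la beyond 1.01% in ESC-2i. H3K27ac in contrast was called in all 5 cell types at a median percentile of 89.1 by total signal. By maximum signal the H3K27ac peaks stood at 32.5 in BMDM to 90.9 in ADIPO. The H3K18la peaks stood at 3.75 in ESC-2i to 26.4 in BMDM, so in BMDM the marks lay close by this measure. The mean H3K27ac coverage of the window was 71.3% ± 18.7 (SD over 5 cell types), against 2.98% for H3K18la in the same cell types, and H3K27ac was the higher in 5 of 5. Flipping the signs of 5 cell types exactly, two-sided, gives no p under 0.0625, and no other test of this difference was run.

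Crebbp, the paralogue of Ep300 (chromosome 16, 4081328 to 4213997, minus strand), was called for H3K18la in 1 of 8 cell types, ADIPO, where the peak covered 38.5% of the window and stood at the 6.77 percentile. In the other 7 the nearest H3K18la peak lay 21702 bp or more away. H3K4me3 was called in 4 of 4 cell types with a mean coverage of 75.2% ± 12.5 (SD over cell types) and H3K27ac in 4 of 5, ESC-ser being the exception. In GAS the strongest H3K27ac peak was 15425 bp wide, began 474 bp inside the gene and had its maximum 13785 bp into it, while in BMDM, PIM and ADIPO the H3K27ac peaks were 635, 648 and 922 bp wide. H3K27me3 was called in PIM by a peak of 5588 bp that ended 812 bp before the TSS and took up 29.7% of the window. At the representative starts Crebbp and Kat2a had the fewest calls of the 10 genes, in 10 of 24 lists each, and at the RefSeq starts Sirt1 had the fewest, in 8. Over the 24 lists the promoter coverage most like that of Crebbp was that of Rbm22, Tmem234 and Eif3i, with mean absolute differences of 5.10, 5.77 and 5.84 percentage points. All 3 had H3K4me3 in 4 of 4 lists and H3K18la in 1 of 8, which follows from picking them for this likeness.

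Kat2a, one of the pair of SAGA acetyltransferases (chromosome 11, 100704746 to 100712465, minus strand), had H3K18la over 100% of the window in ESC-ser and 99.4% in ESC-2i, but over 30.2% in GAS, 12.3% in PIM and none in the other 4. The stem cell values lay apart from all 6 others. H3K27ac was called in ESC-ser, at the 97.2 percentile, and in GAS, and was not called in BMDM, PIM and ADIPO, where the nearest peak was 5546 to 6523 bp away. At the representative starts PIM at Kat2a was the only combination with H3K18la and no H3K27ac (1 of 50, beside 4.43% over all protein-coding genes). The start of Hspb9, a small heat shock protein gene, lies within 2000 bp of that of Kat2a and inside the Kat2a peak in 3 of 4 H3K18la lists, so the peaks cannot be assigned to either gene. Kifc1, Atpif1 and Hspb9 itself had the most similar promoter coverage over the 24 lists, with mean absolute differences of 5.77, 6.20 and 6.26 percentage points.

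Kat2b, the other SAGA acetyltransferase (chromosome 17, 53566861 to 53672720, plus strand), carried the strongest and widest H3K18la peak of the 10 genes in both stem cell lists. In ESC-2i a single peak of 38901 bp, chr17:53551031-53589931, ran from -15940 to 22960 bp relative to the TSS and ranked 82 of 19908 by total signal. In ESC-ser the peak was 22417 bp wide and ranked 114 of 19057. The median width at called genes was 5482 bp in ESC-2i and 3681 bp in ESC-ser. In GAS, MT, PIM and ADIPO the peaks were 1842 to 3751 bp wide, at percentiles of 77.5, 28.2, 72.1 and 64.2, and MB and BMDM had none at the promoter. In MT and ADIPO the peaks of Kat5 and Hdac2 stood at higher percentiles than that of Kat2b. Kat2b had H3K18la peaks elsewhere in its gene body in MB (2) and BMDM (3), which made Kat2b the only member with H3K18la in its gene body in all 8 lists. Of the other marks at the promoter in ESC-ser, H3K27ac stood at the 98.4 percentile in a peak of 7378 bp and H3K4me3 at the 93.5 percentile in a peak of 5325 bp, both narrower than the H3K18la peak.

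The maximum of the Kat2b peak kept to the same place. In the 6 H3K18la lists it lay 1378 to 1430 bp downstream of the TSS, in the stretch of the first intron printed above, and in the 4 H3K4me3 lists 1379 to 1431 bp downstream. In the 5 H3K27ac lists it lay at 1087 to 1580 bp. Of the 2563 genes called in at least 6 H3K18la lists, 1.13% had maxima within as small a range as the 52 bp of Kat2b, and the median range was 2195 bp. The cell types with these maxima included both stem cell lists, MT, GAS, PIM and ADIPO.

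**Figure D3:**
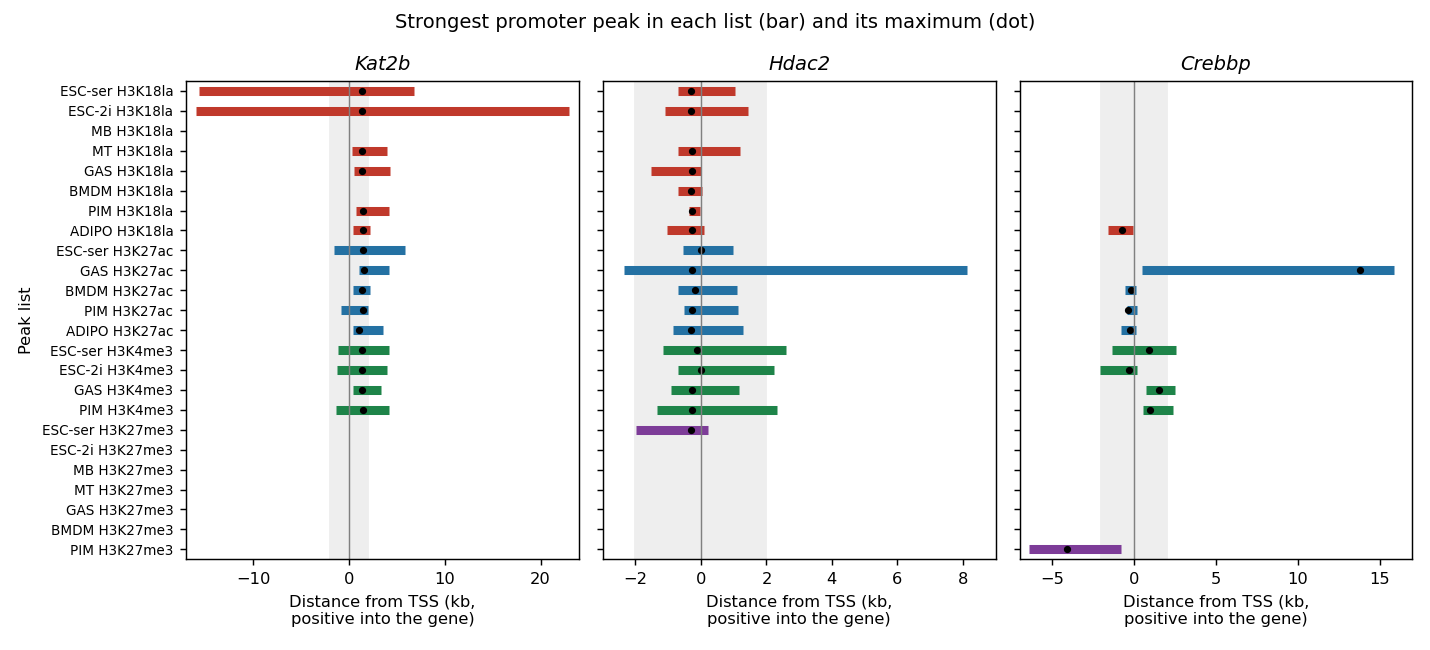
Extent (bar) and maximum (dot) of the strongest promoter peak of Kat2b, Hdac2 and Crebbp in each list, as distance from the TSS in kb, with the promoter window shaded and colours for the marks as in the row labels. The Kat2b H3K18la peaks of both stem cell lists are the widest drawn (38901 and 22417 bp), followed by Crebbp H3K27ac in GAS (15425 bp). The Hdac2 and Kat2b H3K18la maxima stand above each other across cell types.

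Kat5, the NuA4 acetyltransferase (chromosome 19, 5603014 to 5610237, minus strand), had H3K18la peaks over the TSS in 6 of 8 cell types. Coverage was 61.7% in ESC-2i, 57.7% in MT, 50.8% in ADIPO, 37.7% in GAS, 28.3% in BMDM and 14.7% in PIM, and 0 in ESC-ser and MB. The percentile ran from 4.08 in ESC-2i, where the peak was 2468 bp wide, to 81.5 in ADIPO, where it was 2034 bp wide. The maximum stayed between -122 and 136 bp from the TSS, a range that 10.7% of the genes called in 6 or more lists matched. ESC-ser had H3K27ac at the 79.0 percentile at this promoter without H3K18la. No H3K18la peak reached the gene body beyond the promoter window in any cell type. The RefSeq start of Kat5 lies 1319 bp upstream, and from there the same maxima lay at 1197 to 1455 bp and H3K18la covered up to 8.96% of the gene body. At that start H3K27me3 was also called in GAS, over 27.1% of the window beside 31.4% for H3K18la, and H3K27ac was not.

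Of the erasers, Hdac1 (chromosome 4, 129516104 to 129542713, minus strand) was called for H3K18la in both stem cell lists and ADIPO, with 42.5% of the window in peaks in ESC-ser, 56.3% in ESC-2i and 36.1% in ADIPO. The 3 peaks stood at percentiles of 31.8, 14.1 and 25.2 by total signal, and of 50.1, 43.3 and 68.4 by maximum signal. H3K27ac was called in 4 of 5 cell types and reached the 87.6 percentile in ESC-ser, and GAS lacked both H3K18la and H3K27ac while H3K4me3 was called there at the 78.1 percentile. The nearest GAS H3K27ac peak was 23018 bp away.

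Hdac2, the paralogue of Hdac1 (chromosome 10, 36974544 to 37001889, plus strand), had the most H3K18la calls, 7 of 8. Coverage was 63.5% in ESC-2i, 47.6% in MT, 43.8% in ESC-ser, 38.7% in GAS, 28.3% in ADIPO, 18.8% in BMDM and 8.20% in PIM, and 0 in MB. The peaks were narrow and tall. Their widths were 328 to 2542 bp, and by maximum signal they stood at the 97.1 percentile in GAS, 97.7 in ADIPO and 89.8 in BMDM, against 62.5, 77.6 and 60.3 by total signal. In MT, ESC-2i, ESC-ser and PIM they stood at 86.8, 82.7, 76.5 and 75.2 by maximum signal, against 57.2, 54.2, 41.6 and 24.1. The maximum lay at -308 to -263 bp from the representative start in all 7 lists, and so at -61 to -16 bp from the RefSeq start, which is 247 bp further upstream. This is a range of 45 bp that 1.01% of the genes called in 6 or more lists matched. H3K27me3 was called here in ESC-ser, in a peak of 2206 bp over 55.1% of the window that ended 226 bp past the TSS, and its maximum lay at -304 bp, beside the H3K18la maximum at -305 bp in the same cells. At the representative starts Hdac2 in ESC-ser was the only combination in which H3K18la and H3K27me3 were both called (1 of 70, beside 2.41% over all protein-coding genes), and with RefSeq starts Kat5 in GAS was another. Whether both marks lay on the same chromosomes was not measured.

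Hdac3, the catalytic subunit of the NCoR corepressor complexes (chromosome 18, 37935844 to 37955016, minus strand), was called for H3K18la in 4 of 8 cell types. Coverage was 74.9% in ESC-ser, 82.6% in ESC-2i, 47.7% in GAS and 29.5% in ADIPO, at percentiles of 30.9 to 40.4. In GAS a single H3K27ac peak of 39001 bp, ranked 175 of 35286, covered 100% of the Hdac3 gene body and ran on past the start of Diaph1. Its maximum lay 19320 bp downstream of the TSS, past the end of the gene, which is 19173 bp long, and the H3K18la coverage of the gene body in GAS was 40.7%. Across its promoter Hdac3 shares peaks with Rell2, whose start lay inside the Hdac3 peak in all 4 H3K18la lists.

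Sirt1 (chromosome 10, 63319005 to 63381704, minus strand) had 2 starts that gave different answers. At the start chosen by the annotation tags, at 63381704, H3K18la was called in ESC-ser, GAS and ADIPO, with 41.3%, 44.6% and 47.8% of the window in peaks. At the RefSeq start, at 63339035 and so 42669 bp further downstream, H3K18la was called in ADIPO alone, with 44.2% coverage at the 57.5 percentile, and the mean over 8 cell types was 5.52% in place of 16.7%. H3K4me3 was called at both starts in 4 of 4 cell types, and H3K27ac in 4 of 5 at the distal and 3 of 5 at the RefSeq start. In PIM the distal start was covered by H3K27me3 over 85.3% of the window beside H3K27ac and H3K4me3, whereas the RefSeq start had no H3K27me3 within 40222 bp in PIM. A start of Dnajc12, a gene of the heat shock protein cofactor family, lies within 2000 bp of the distal start, so the peaks there cannot be assigned to Sirt1. In ESC-2i, without a call at either start, 15.4% of the gene body counted from the distal start lay in H3K18la peaks.

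Sirt3 (chromosome 7, 140863666 to 140882309, minus strand) was called for H3K18la in 6 of 8 cell types. Coverage was 66.5% in ESC-2i, 54.7% in GAS, 46.1% in ESC-ser, 45.8% in MT, 35.2% in PIM and 24.5% in ADIPO, and 0 in MB and BMDM. All 6 peaks lay at or under the 37.7 percentile. Their maxima were spread over 2168 bp, and 49.5% of the genes called in 6 or more lists had as small a range. The spread came from PIM, whose strongest peak was a separate one with its maximum at 2153 bp, while the maxima of the other lists lay at -15 to 427 bp. Sirt3 shares its promoter with Psmd13, a proteasome subunit gene, whose start lay inside the peak in 5 of the 6 lists. In each of the 6 lists the 2000 bp inside Sirt3 held more H3K18la than the 2000 bp upstream, with means of 48.8% and 19.4% over all 8 cell types.

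**Figure D4:**
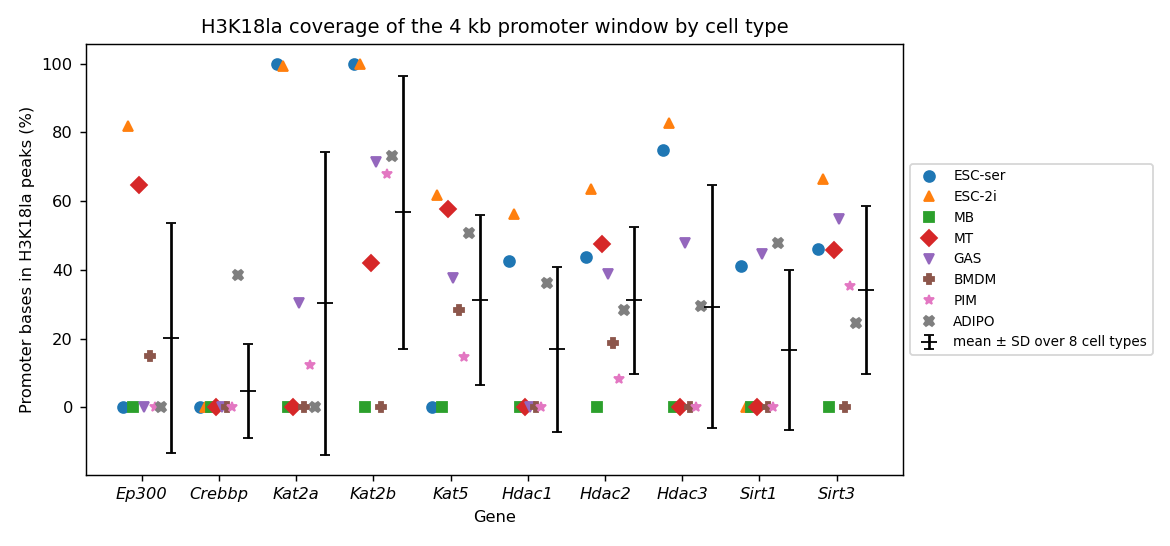
Promoter bases in H3K18la peaks (%) for each gene in the 8 cell types (symbols), with the mean ± SD over cell types in black; the SD bars of genes with many values of 0 reach below 0, where no value can lie. Kat2b has the highest mean (56.8%) and Crebbp the lowest (4.81%), and MB is at 0 for all 10 genes.

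The genes were next compared over cell types. Mean H3K18la coverage followed the order Kat2b (56.8% ± 39.7, SD, n = 8 cell types), Sirt3 (34.1% ± 24.4), Kat5 (31.4% ± 24.7), Hdac2 (31.1% ± 21.4), Kat2a (30.2% ± 44.1), Hdac3 (29.3% ± 35.2), Ep300 (20.2% ± 33.5), Hdac1 (16.9% ± 23.9), Sirt1 (16.7% ± 23.1) and Crebbp (4.81% ± 13.6). Every step between neighbours in this order was smaller than the SD of either gene. Writers and erasers were mixed along it.

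Coverage in both stem cell lists lay apart from that in all 6 other cell types at 4 of the 10 genes, Kat2a, Kat2b, Hdac1 and Hdac3, and was the higher at each. Among all protein-coding genes 15.7% were apart in either direction. The means of the stem cell and other lists were 99.7% and 7.09% at Kat2a, 78.8% and 12.9% at Hdac3, 100% and 42.4% at Kat2b and 49.4% and 6.02% at Hdac1. The median peak width at called genes was also larger in the stem cell H3K18la lists than in the other 6, and its part in these differences was not tested.

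An active and a repressive mark at the same promoter were compared as H3K18la minus H3K27me3 coverage over the 7 cell types with both, and each gene was tested by exact two-sided permutation of the signs. After Benjamini-Hochberg adjustment over 21728 genes the test called 0 genes (0%), the smallest adjusted p being 0.273, while 2553 had an unadjusted p under 0.05. The largest mean difference among the 10 was that of Kat2b, 54.5 percentage points ± 42.2 (SD, n = 7, higher in 5, exact p = 0.0625, adjusted p = 0.312). Sirt3, Kat5 and Kat2a had differences of 35.5, 28.6 and 34.6 points, and the sign was positive in 9 of 10 genes. Over all genes the median difference was 0, and of the 2553 with an unadjusted p under 0.05 the sign was positive in 1256 and negative in 1297. It was negative at Crebbp, with -4.25 points, and near 0 at Sirt1, with 0.0857 points at the distal start and 0 at the RefSeq start. None of these passed the test, which left them little room to do so. A cell type without a difference cannot lower p, and MB held neither mark at any of the 10 promoters. At Kat2b, Kat5 and Sirt3, each higher in 5 and without a difference in the rest, an exact p of 0.0625 was the smallest possible.

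H3K18la coverage of the promoter was set against that of the rest of the gene body over 8 cell types, and the sign-flip test called 0 of 19368 genes (0%), with a smallest adjusted p of 0.278 and 2233 genes at an unadjusted p under 0.05, 1954 of them with the promoter higher. All 10 genes had the higher mean at the promoter, as had most genes with a difference. At Hdac2 the means were 31.1% and 1.69% (promoter higher in 7 of 8 cell types, exact permutation p = 0.0156, adjusted p = 0.278). Kat2b, Kat5 and Sirt3 each had an exact permutation p of 0.0312 and the same adjusted p of 0.278, with differences of 40.8, 31.4 and 29.2 points. At Hdac2 and Kat5 every cell type with a difference had the promoter higher, so their exact p was the smallest possible for them.

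The position of H3K18la about the TSS was compared as coverage downstream minus upstream. The test again called 0 of 21728 genes (0%), with 617 at an unadjusted p under 0.05 and a smallest adjusted p of 1. At the representative starts Sirt3 had the largest difference, 29.4 points ± 29.6 (SD, n = 8, exact p = 0.0312, adjusted p = 1). The difference was positive at 5 genes and negative at 5, and at Ep300 and Hdac2 its sign turned with the RefSeq start, from 11.4 to -7.92 and from -14.4 to 6.78 points. At Kat5 it grew from 4.54 to 50.1 points (exact permutation p = 0.0312, adjusted p = 1), above that of Sirt3.

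**Figure D5:**
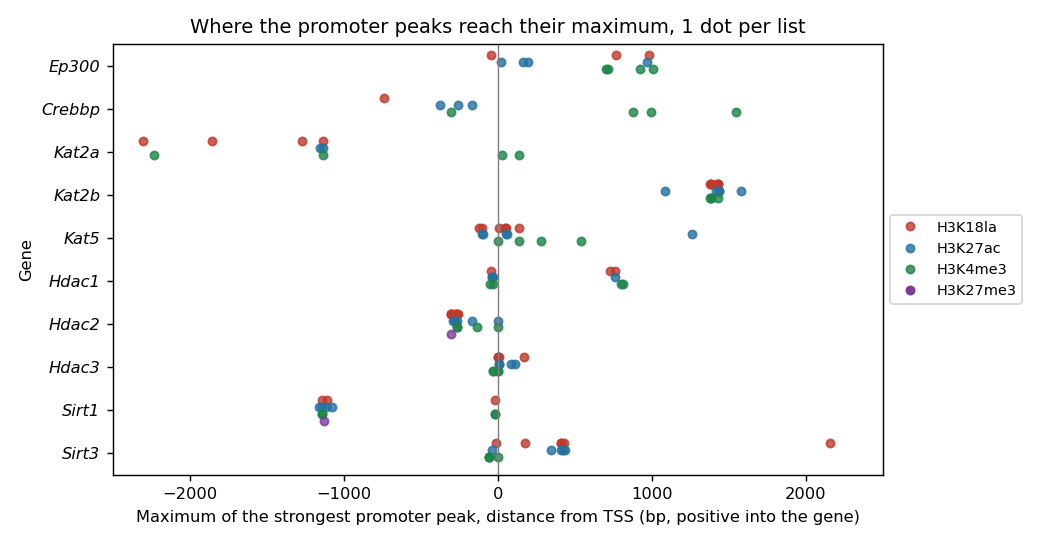
Distance of the maximum of the strongest promoter peak from the TSS (bp, positive downstream) for each gene, 1 dot per list, coloured by mark; 4 maxima beyond the plotted range (Ep300, Crebbp and Hdac3 H3K27ac in GAS, Crebbp H3K27me3 in PIM) are not drawn. The H3K18la dots of Kat2b gather between 1378 and 1430 bp and those of Hdac2 between -308 and -263 bp, while those of Kat2a are spread over more than 1000 bp.

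H3K18la was then read against the other active marks in the same cell type. Of the 44 combinations with H3K27ac, 29 (65.9%) also had H3K18la, beside 64.6% over all protein-coding genes, so that where H3K27ac was present H3K18la accompanied it about as often as at the average gene. Of the 40 combinations with H3K4me3, 27 (67.5%) had H3K18la, against 53.1% over all genes. H3K27ac without H3K18la was found in 15 combinations, 4 of them at Ep300 and 3 at Crebbp. H3K4me3 without H3K18la was found in 13, 4 of them at Crebbp. H3K27ac coverage exceeded H3K18la coverage on average at 9 of 10 genes and H3K4me3 coverage at 9 of 10, the exceptions being Kat2a for H3K27ac (28.5% H3K18la, 27.7% H3K27ac) and Kat2b for H3K4me3 (84.8% and 78.8%). Over 5 and 4 cell types the exact sign-flip permutation test gives no p under 0.0625 and 0.125, and no other test of these differences was run.

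The RefSeq promoter table held 8 of the 10 genes, with Hdac1 and Hdac3 missing. The CpG counts per 300 bases were 49 for Crebbp, 47 for Sirt1, 36 for Hdac2, 30 for Ep300, 23 for Sirt3, 19 for Kat2a and Kat5 and 11 for Kat2b, beside a median of 7 over 32619 promoters. For Sirt1 and Ep300 these bases hold the RefSeq start and not the representative start. For Crebbp they lie at chr16:4213355-4213654, inside the gene, and hold neither start. On either strand the GC box GGGCGG was found in 4 of 8 (35.9% of all promoters), the CCAAT box in 2 of 8 (37.6%) and TATAAA in 0 of 8 (13.7%).

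The other 58 genes of the same enzymology were read by role. H3K18la was called in 219 of 464 combinations (47.2%), H3K27ac in 228 of 290 (78.6%), H3K4me3 in 220 of 232 (94.8%) and H3K27me3 in 17 of 406 (4.19%), beside means of 28.1%, 40.3%, 55.8% and 19.2% of all protein-coding genes. Their H3K18la peaks had a median percentile of 53.1 by total signal, against 35.0 for the 10 members and 55.5 for all called genes. In MB 2 of the 58 were called for H3K18la (3.45%, against 8.42% of all genes). Subunits of eraser complexes had H3K18la in 53 of 88 combinations and no H3K27me3 in 77, and subunits of writer complexes had H3K18la in 33 of 88. The other acetyltransferases were called for H3K18la in 31 of 64, the other deacetylases in 51 of 104, the acyl readers in 25 of 72 and the acyl donor and lactyl enzymes in 26 of 48. The H3K18la shares of all 6 roles lay above the 28.1% of all genes, and none was tested.

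In this wider set 27 of 58 genes had H3K18la in 3 or fewer of 8 cell types, as had 71.7% of all protein-coding genes. Kat6a, Hdac8, Tada2b and Mllt1 had it in none, although H3K4me3 was called in 4 of 4 lists at Kat6a, a MYST family acetyltransferase, at Tada2b, an adaptor of SAGA, and at Mllt1, a YEATS domain reader, and in 2 of 4 at Hdac8. One cell type was called at Sgf29, Dmap1, Sin3b and Yeats2. Among those called in 2 cell types were Gtf3c4, Naa40, Hdac9, Hdac11, Tada2a, Supt7l, Ep400, Mta2, Mllt3, Dpf2 and Aars2. In 3 were Hdac6, Hdac10, Sirt5, Sirt7, Supt20, Brd3 and Yeats4. Acss1, which makes acetyl coenzyme A in mitochondria, was the only gene of the 58 with H3K27me3 in 3 or more cell types, in 4 of 7 (22.2% of all genes were called in 3 or more), and it had H3K18la in 5 of 8.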

How the data were processed

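The members and the gene lists were chosen with earlier results of these data known. Per the labels and methods, the authors trimmed reads with Trim Galore 0.6.6, aligned them to mm10 with Bowtie2 2.4.4, computed coverage with bedtools 2.30, combined replicates and called peaks with SEACR 1.3. The CUT&Tag buffers held sodium butyrate, a deacetylase inhibitor. The deposited score of each peak is its total signal, and the deposited maximum signal is the highest coverage in it. Both are whole numbers not scaled for depth, and sequencing depth was not analysed here.

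The autosomes and chromosome X were read with the GENCODE annotation of GRCm38, the assembly of mm10, and no peak passed a chromosome's end. Each gene had 1 start, that of the protein-coding transcript with the best annotation tag. RefSeq starts, added after the data had been seen, matched 20730 of 21728 genes by symbol. Gene bodies needed 1000 bp outside the promoter window. Stem cell lists that name no medium were taken as ESC-ser, from the sample descriptions. All 10 members were named. Of the 58 other genes, those with H3K27me3 in at least 3 or H3K18la in at most 3 cell types were named, as were the 3 genes most like the member with the fewest calls, here a tie of Crebbp and Kat2a. One gene that this rule names is not reported here. Python 3.11.15 and numpy 2.4.6 were used, and interval functions were checked against bedtools. Promoter sequences are from RefSeq (GRCm38.p6).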

Additional observations from a re-analysis of the deposited data

How the results depend on the processing

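By replicate number no paired analysis was possible because replicates were pooled in each list. The tested differences are paired within a cell type. The share of the 10 promoters called stayed within 1.5 times for every mark with a window of 1000 bp, the most upstream or any annotated start, an overlap of 500 bp, RefSeq starts, or without lists resting on 1 sample. With the 5000 strongest peaks per list it fell to 3.75% for H3K18la, 40% for H3K27ac, 62.5% for H3K4me3 and 0% for H3K27me3 (10.9% of all genes). With lists reduced to the called bases of the smallest list of their mark it was 6.25% for H3K18la (4.84% of all genes), 56% for H3K27ac (24.9%), 92.5% for H3K4me3 (49.3%) and 0% for H3K27me3 (10.4%). The sign-flip tests called 0 genes under the alternatives too, which says nothing about stability, since so few cell types leave little room for a call: with nuclei only, the H3K18la minus H3K27me3 test gives no exact p under 0.0625. Among single genes some signs turned. With nuclei only, the H3K18la minus H3K27me3 difference at Sirt1 was -8.13 points, and leaving out each cell type in turn gave -7.34 (without GAS) to 14.3 (without PIM). Promoter minus gene body coverage was -0.0939 at Hdac3 and -0.647 at Sirt1 among the 5000 strongest peaks, and at Crebbp ran from -1.24 (without ADIPO) to 5.17. Downstream minus upstream coverage was -8.26 at Hdac1 and 10.0 at Hdac3 with nuclei only, and -7.92 at Ep300 and 6.78 at Hdac2 with RefSeq starts. Leaving out cell types it ran from -1.20 (without ESC-2i) to 15.7 at Hdac1 and from -8.68 to 3.63 (without ESC-ser) at Hdac3. Apart from the reduced lists, which hold fewer peaks, the cause was not tested. The MB and BMDM H3K18la lists called the fewest genes, and a missing peak is no measure of a missing mark.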
